A study of Mus musculus with 8 samples.

Results

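Dermal condensate-like cells at embryonic day 15 (E15) were the 57 cells, of 3592 E15 cells past the cell filter and 7486 such cells in all 8 libraries, that carried a fixed set of transcripts. A barcode was a member if it had at least 1000 genes, at most 10% mitochondrial UMIs (unique molecular identifiers, here 1 per captured transcript), fewer than 3 of 6 epithelial genes detected, and no UMI of Cdh5, Ptprc, Sox10, Myog or Rgs5. It also needed at least 1 UMI each of Bmp4, Ebf1 and Ptch1, and at least 1 of Bmp3 or Stmn2. Members numbered 21 in the wild-type (WT) library, 26 in the heterozygous (HET) library, 3 in the first knockout library (KO 1) and 7 in the second (KO 2). They were set against the other 2344 E15 cells of the same gate that had a UMI of Twist2, a transcription factor gene of dermal fibroblasts. Members and these other cells together are called dermal cells below. The 5 genes of the rule were known to lead a cluster of these data that held no KO cell, so their levels, and the numbers of members, are given as a description. The fit of KO against control runs over all genes and so includes them, but their fitted values are not read as results.

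The libraries were made with a 10x 3' kit from the dissected, enzyme-digested back skin of mouse embryos at E13 or E15, with 4 libraries per age: 1 WT, 1 HET and 2 KO. HET and KO embryos carried 1 or 2 copies of a GFP knock-in at the ΔN form of p63 (the product of Trp63), a transcription factor of epidermal cells. WT and HET libraries served as control, following the 2 arms named for the series, so each E15 arm had 2 libraries. The labels do not say how many embryos a library holds or whether libraries of 1 group came from separate embryos, so p-values measure only the spread between these libraries.

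The dermal condensate is a cluster of fibroblasts that gathers under the epidermal placode of a forming hair follicle and later becomes the dermal papilla. Condensate cells receive sonic hedgehog and FGF signals from the placode and Wnt signals within the upper dermis, leave the cell cycle, and send BMP and other signals back to the epithelium. Sox2, Sox18, Foxd1 and Cxcr4 are genes commonly used to mark these cells.

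E15 libraries held 8177867 to 21551811 UMIs, and 505, 774, 983 and 1330 barcodes of the WT, HET, KO 1 and KO 2 libraries passed the filter. Trp63 stood at 28.0 and 7.95 CPM (UMIs scaled to a total of 1000000 over the cells counted) over these cells in WT and HET and at 0.379 and 0.298 CPM in KO 1 and KO 2, in the order of the labels. 3' tags can also come from parts of a transcript outside the knock-in, so this level is only a partial check of the labels. Any pair of the 8 libraries shared at most 6 cell barcodes, and no shared barcode was a member. Members were as deep as the cells around them: median UMIs were 12927, 13220, 12444 and 11993 in members and 13708, 13759, 12978 and 12977 in other Twist2 cells of the WT, HET, KO 1 and KO 2 libraries. A doublet score marked 0, 1, 1 and 0 members.

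Members were frequent in both control libraries and rare in both KO libraries. They made up 5.92% of 355 dermal cells in WT (Clopper-Pearson 95% interval 3.70 to 8.90, counting error only) and 4.59% of 567 in HET (3.02 to 6.65). In KO 1 they were 0.444% of 675 cells (0.0917 to 1.29) and in KO 2 0.871% of 804 cells (0.351 to 1.79). The groups did not overlap. At E13 the rule was met by 3, 1, 1 and 0 cells of the WT, HET, KO 1 and KO 2 libraries. When every cell was thinned to 5000 UMIs, which left out shallower cells, members were 10 of 312, 11 of 530, 0 of 598 and 0 of 703 dermal cells.

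**Figure D1:**
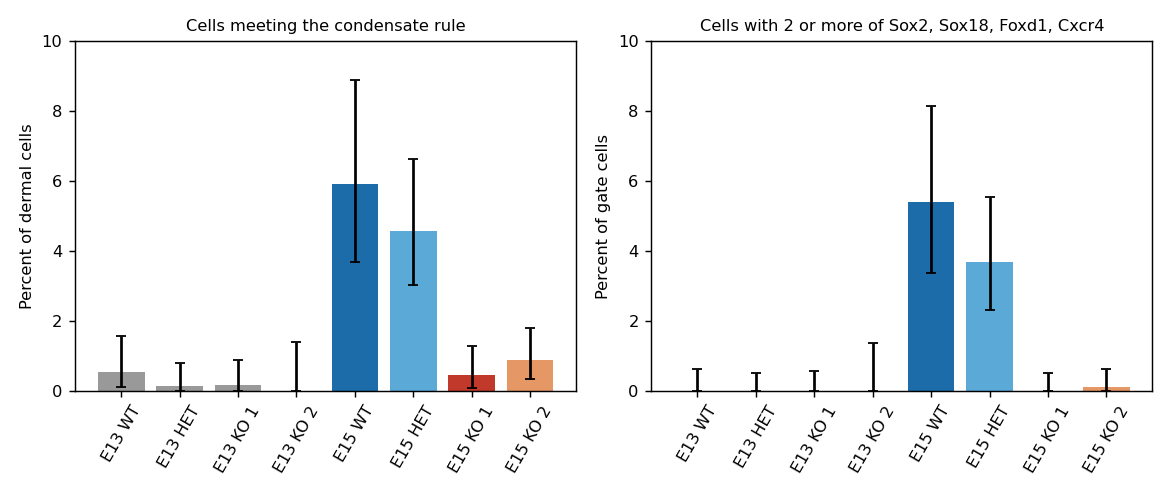
Left, the percent of dermal cells that met the rule in each library; right, the percent of gate cells with 2 or more of Sox2, Sox18, Foxd1 and Cxcr4, which the rule did not use. Bars are single libraries and whiskers 95% Clopper-Pearson intervals; E15 WT and HET stand at 5.92% and 4.59% on the left and at 5.41% and 3.69% on the right, and the other 6 libraries are under 1% in both panels.

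Sox2, Sox18 and Foxd1, which encode transcription factors, and Cxcr4, a chemokine receptor gene, were not part of the rule. They were taken from a list of 25 condensate genes with earlier results of these data known. In WT, 21 of the 388 gate cells had a UMI of 2 or more of these 4 genes (5.41%, interval 3.38 to 8.15), and in HET 22 of 596 did (3.69%, 2.33 to 5.54). KO 1 had 0 of 706 (0%, interval 0 to 0.521), and KO 2 had 1 of 892 (0.112%, 0.00284 to 0.623). None of the 4 E13 libraries had such a cell. The 2 control and 2 KO libraries did not overlap, though an exact permutation test of 2 against 2 libraries cannot go below p = 0.33, so none was made. Of the control cells with 2 or more of the 4 genes, 14 in WT and 16 in HET were members and 7 and 6 were not.

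Members differed widely in these 4 genes. Among the 21 WT members, 14 had 2 or more of them, 4 had 1 and 3 had none. Among the 26 HET members, 16 had 2 or more and 10 had none. All 3 members of KO 1 and all 7 of KO 2 had none, so the KO members met the rule without a core condensate gene. Sox2 was detected in 10 of 21 WT and 13 of 26 HET members, in 1.2% and 1.11% of other Twist2 cells, and in 0 of 22 and 1 of 41 cells with a UMI of Ptprc, a leukocyte gene, whose median depths were 17236 and 19577 UMIs. Rule genes were also detected in these Ptprc cells of WT and HET: Ptch1 in 31.8% and 34.1% and Ebf1 in 13.6% and 29.3%. Stmn2 was in 22.7% and 9.76% of them, Bmp4 in 9.09% and 2.44% and Bmp3 in 1 of 22 and 0 of 41. Sox18 was detected in 66.7% and 53.8% of members against 5.39% and 3.14% of other Twist2 cells, Foxd1 in 57.1% and 34.6% against 3.29% and 2.96%, and Cxcr4 in 47.6% and 19.2% against 1.8% and 0.924%.

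Control members with 2 or more core genes stood apart from the other members in genes of the rule as well. Ebf1, which encodes a transcription factor of the EBF family, had a median of 35.5 UMIs per cell in such WT members and 19.5 in such HET members, against a median of 1 UMI in the members without a core gene of all 4 libraries. Twist2 had medians of 2 and 4 UMIs in the core-positive members of WT and HET and of 11 and 17 in those without a core gene. The 3 WT members without a core gene held 5879 CPM of Col1a1, the gene of a chain of type I collagen, but 206 of their 246 UMIs came from 1 cell. Other WT Twist2 cells held 4952 CPM and core-positive members 985 CPM. In HET these values were 3252, 4134 and 1128 CPM. Dcn, the gene of the collagen-binding proteoglycan decorin, was at 159 CPM in core-positive WT members, 2079 CPM in those without a core gene and 1731 CPM in other cells. Bmp4, Ebf1 and Ptch1 were all at exactly 1 UMI in 5 of the 7 members of KO 2, in 0 of the 3 of KO 1, in 3 of the 26 of HET and in 0 of the 21 of WT. The split by core genes was made after these values were seen and carries no test.

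**Figure D2:**
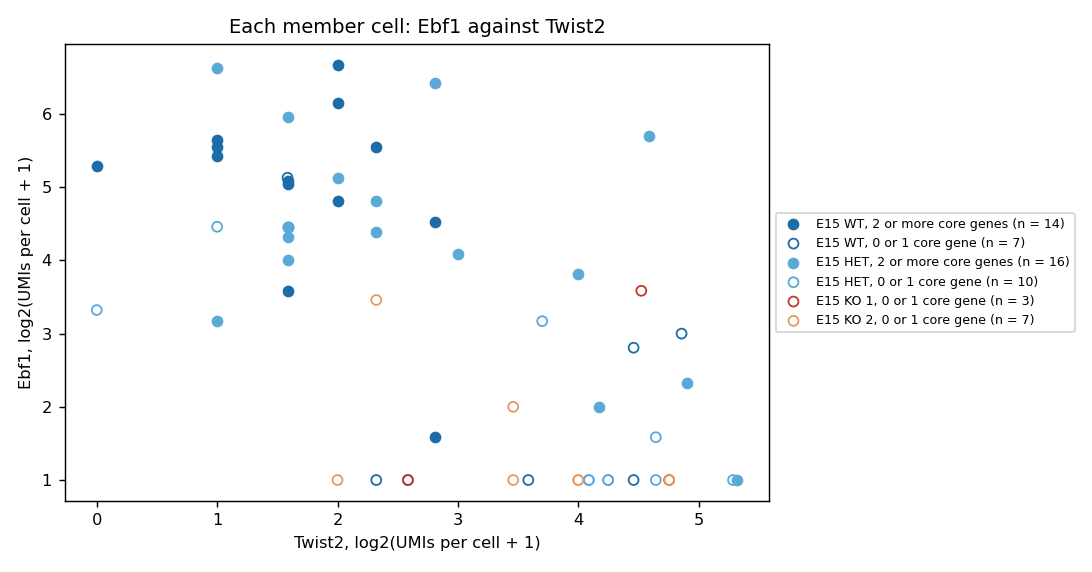
Each point is 1 member cell, with its Twist2 UMIs on the x axis and its Ebf1 UMIs on the y axis, both as log2(UMIs + 1); filled points had 2 or more core genes and open points 0 or 1, and some points coincide. Most filled points lie at upper left (median Ebf1 35.5 and 19.5 UMIs in WT and HET), and the KO cells, all open, have a median of 1 Ebf1 UMI in each library.

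Cells just short of the rule were common in every library. Gate cells that met 3 of its 4 criteria numbered 61, 89, 56 and 52 in WT, HET, KO 1 and KO 2, and 21.3%, 20.2%, 3.57% and 0% of them had at least 1 core gene, against 85.7%, 61.5%, 0% and 0% of members. In the control libraries most of these cells lacked Bmp4 (22 and 30 cells) or Ebf1 (22 and 32). In the KO libraries Ptch1 was the criterion most often missing (28 and 22 cells).

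Bmp4 and Bmp3 encode secreted BMP-family ligands, Ptch1 the hedgehog receptor that is itself induced by hedgehog signalling, and Stmn2 a microtubule-binding protein better known from neurons. All 5 rule genes were high in the control members, which the rule chose by them, and the sizes are given only as a description. Ebf1 had the most UMIs, 591 in WT members (2227 CPM, 163 CPM in other cells) and 522 in HET members (1475 against 144 CPM). Bmp4 stood at 467 CPM against 18.0 in WT and 376 against 33.6 in HET, Bmp3 at 260 against 11.2 and 130 against 4.37, Ptch1 at 433 against 58.9 and 285 against 59.8, and Stmn2 at 720 against 216 and 562 against 177. Stmn2 therefore differed least, 3.33-fold in WT and 3.18-fold in HET. In the KO members, which are 3 and 7 cells, Bmp3 stood at 0 against 21.5 CPM in KO 1 and 21.3 against 20.3 CPM in KO 2, and Ebf1 at 235 against 198 and 192 against 145 CPM. Members held 5.08% and 4.1% of the UMIs of the WT and HET gates but 55.2% and 56.8% of their Bmp3 UMIs and 79.3% and 78.0% of their Sox2 UMIs.

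Across all genes with at least 20 UMIs over members and other cells in each control library, 511 of 10018 were at least 2-fold higher in members in both libraries (5.1%) and 230 at least 2-fold lower (2.3%). The cells were chosen by their transcripts, so this contrast has no test, and intervals beside a fold cover counting error only. Of the 25 condensate genes, 20 reached that minimum, and 17 of the 20 were at least 2-fold higher in both libraries and 0 lower. Their median log2 ratio, taken as the smaller of the 2 libraries' ratios, was 2.57, against 0.0 over all 10018 genes. Sox2 had 23 UMIs in WT members and 6 in the 334 other cells, or 68.2-fold more CPM (interval 27.0 to 205), and 32 and 8 UMIs in HET, or 90.6-fold (40.9 to 228). Sox18 was 16.0-fold (10.5 to 24.4) and 41.5-fold (24.7 to 71.4) higher in WT and HET. Foxd1 was 18.6-fold (9.78 to 35.6) and 11.3-fold (5.51 to 22.2) higher. Prdm1, which encodes the repressor Blimp1, was 49.6-fold and 20.5-fold higher, and Trps1, a transcription factor gene whose loss causes sparse hair, 3.5-fold and 3.89-fold. Vcan, the gene of the proteoglycan versican, was not higher (0.698-fold and 0.83-fold), nor was Fst, the gene of the activin antagonist follistatin (0.631-fold and 1.08-fold).

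The 20 genes highest in members in both libraries were Ibsp, Sox2, Ntng1, Dll1, Bmp3, Flt1, Prdm1, Sox9, Tspan7, Sox18, Ncald, Lrrc15, Hs3st6, Foxd1, Bmp4, Rb1, Sobp, Adamts15, Ebf1 and Col11a1. Ibsp, which encodes the bone matrix protein bone sialoprotein, had 21 UMIs in WT members against 3 in other cells and 19 against 6 in HET. Its UMIs were concentrated: only 7 of 21 WT and 2 of 26 HET members had any, and a single HET cell held 18. Ntng1, which encodes the guidance protein netrin G1, was 31.0-fold (18.9 to 51.7) and 34.0-fold (20.9 to 55.8) higher. Dll1, a gene of a Notch ligand, was 77.1-fold (31.0 to 229) and 25.7-fold (12.1 to 55.2) higher. Hs3st6, the gene of a heparan sulfate sulfotransferase, was 18.3-fold and 11.8-fold higher.

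**Figure D3:**
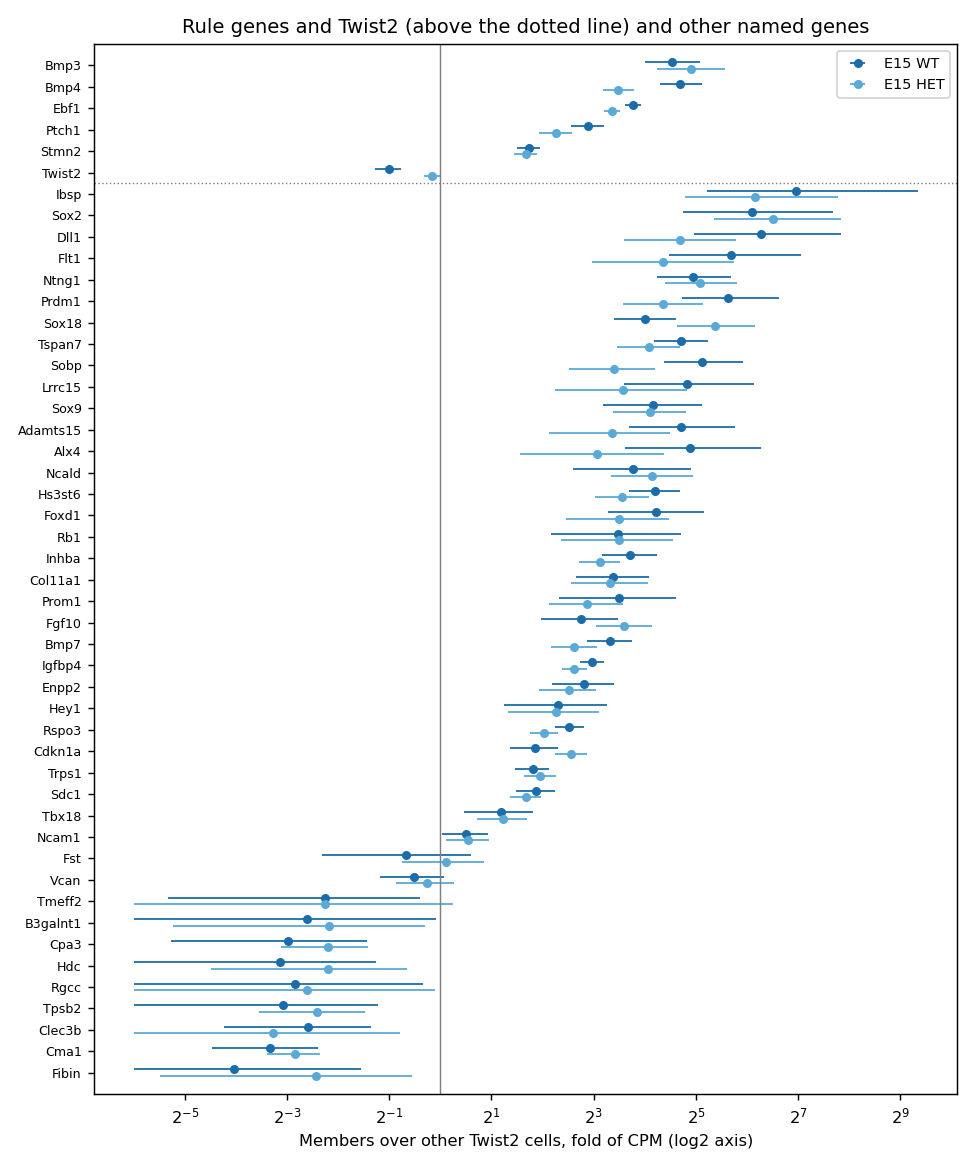
Fold of CPM in members over other Twist2 cells (x axis, log2 scale) for the rule genes, Twist2, the 20 highest, 9 of the 10 lowest and the condensate genes with at least 20 UMIs in each library, in E15 WT and E15 HET, with 95% counting intervals (lower ends are drawn no further than 2 to the power of -6). Rule genes and Twist2, which also chose the cells, stand above the dotted line; Sox2 at 68.2-fold and 90.6-fold lies far right of the line of equal level, and the intervals of Vcan and Fst cross it.

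Target genes of hedgehog signalling were high as a group. All 4 genes of the list that reached the minimum were at least 2-fold higher in members in both libraries, or 3 of 3 without the rule gene Ptch1. Gli1, the gene of the pathway's transcription factor, was 2.97-fold (1.77 to 4.73) and 2.91-fold (1.87 to 4.36) higher, and Hhip, the gene of a hedgehog-binding inhibitor, 7.91-fold (3.65 to 16.1) and 4.82-fold (2.17 to 9.66). Among 8 genes of hedgehog transducers 0 were higher and 2, Cdon and Boc, which encode co-receptors, were lower. Cdon had 0 UMIs in WT members, which allows up to 11.3 CPM, against 42.6 CPM in other cells, and 11.3 against 38.7 CPM in HET.

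Of the BMP ligands, Bmp7 alone among the 4 genes outside the rule was called, at 260 CPM in WT members against 26.0 CPM in other cells and 155 against 25.2 CPM in HET. None of 5 BMP receptors and none of 3 BMP target genes was called in either direction. Id1 was 1.12-fold and 1.03-fold, Id2 0.571-fold and 0.652-fold and Id3 1.36-fold and 1.38-fold the level of other cells. Of 11 BMP antagonists 3 were higher (Smad6, Smad7 and Sostdc1) and 1 lower.

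In the Wnt lists, 3 of 8 ligands and activators were higher, namely Rspo3 (5.76-fold and 4.1-fold), Wnt5a (4.58-fold and 2.85-fold) and Wnt10a. Of 11 response genes 4 were higher, namely Lef1, the gene of the Wnt effector LEF1 (3.87-fold, 2.89 to 5.11, and 3.6-fold, 2.78 to 4.61), Notum, Nkd2 and Apcdd1. In the Notch list 4 of 8 genes were higher: the ligand gene Dll1, the receptor gene Notch1 (6.09-fold and 6.91-fold) and the target genes Hey1 (4.97-fold and 4.8-fold) and Heyl. Fgf10, the gene of a ligand that signals to epithelium, was 6.75-fold (3.93 to 11.2) and 12.1-fold (8.25 to 17.6) higher and was the one gene called of 5 FGF ligands and receptors. Spry1, which encodes a feedback inhibitor of FGF signalling, was the one called of 9 FGF response genes.

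Genes of the cell cycle were lower or near the level of other cells. Of 24 S-phase genes 0 were higher and 3 lower in members, among them Chaf1b and Uhrf1, and of 24 G2 and M genes 0 were higher and 2 lower (Bub1b and Cdk1). The summed S-phase list was at 501 CPM in WT members against 1320 CPM in other cells and at 1026 against 1510 CPM in HET. The G2 and M list was at 1831 against 2470 CPM and 1362 against 2546 CPM. Of 7 genes of a cell cycle exit list 2 were higher and 0 lower. Cdkn1a, which encodes the cell cycle inhibitor p21, was 3.59-fold (2.57 to 4.93) and 5.91-fold (4.76 to 7.29) higher. The other was Btg1, an antiproliferative gene (2.83-fold and 2.18-fold).

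Matrix and adhesion genes differed in both directions. Of 22 fibrillar matrix genes 3 were lower (Postn, Col12a1 and Col1a1) and 2 higher (Fbln2 and Mfap4). Of 15 basement membrane genes 5 were higher, among them Lama2, a laminin chain gene (7.91-fold and 5.15-fold), Nid1 and Frem1, and 1 lower, Lama4. Of 15 adhesion genes 4 were higher, including Cdh2, the gene of N-cadherin (20.3-fold and 5.96-fold), and Cd44, and 1, Itga4, lower. Of 20 guidance genes 4 were higher (Unc5b, Sema6a, Efnb1 and Robo2) and 2, Cxcl12 and Sema3c, lower. Cxcl12, which encodes the ligand of CXCR4, was 0.265-fold and 0.318-fold the level of other cells.

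The 10 lowest genes in members included Cma1, Rgcc, Clec3b, Fibin, Tpsb2, Tmeff2, Hdc, Cpa3 and B3galnt1. Members held 1 to 5 UMIs of Rgcc, Clec3b, Fibin, Tmeff2, Hdc and B3galnt1 in either control library. Cma1, Tpsb2, Hdc and Cpa3 are mast cell genes. Cma1 had 9 UMIs in WT members and 1609 in other cells (0.0995-fold, interval 0.0453 to 0.189), and 32 and 5201 in HET (0.139-fold, 0.0952 to 0.197). The summed haemoglobin and red cell list was also lower in members, at 2445 against 4669 CPM in WT and 5180 against 10532 CPM in HET, and so was a keratinocyte list, at 682 against 1226 and 444 against 606 CPM. The part of RNA from other cells in these differences was not tested.

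Some genes of the 20 highest are also expressed in endothelium, among them Sox18 and Flt1, a VEGF receptor gene. Of 8 endothelial markers, Cdh5 (set to 0 by the gate), Pecam1, Tek and Tie1 were at 0 UMIs in all control members, and Kdr had 4 and 8 UMIs, Egfl7 1 and 6, Esam 1 and 0 and Cldn5 0 and 2 in WT and HET. The summed list was at 22.6 and 45.2 CPM in members and 32.2 and 45.4 CPM in other cells. Stmn2 is shared with neurons, but of the other 9 neuron markers Stmn3, Elavl3, Elavl4, Snap25, Dcx and Nefm were at 0 in control members and Gap43 had 19 and 27 UMIs. Of 7 Schwann cell markers 5 were at 0 in WT members and 5 in HET members, Sox10 by the gate.

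The genes most like the summed rule genes across 889 thinned control dermal cells were Sox18 (Pearson r 0.39, over cells of 2 libraries), Hs3st6 (0.39), Dclk1 (0.39), Malat1 (0.38), Nrp2 (0.37), Sox11 (0.36), Prdm1 (0.36) and Cd24a (0.34), of 9669 genes compared. The coefficients are a description across cells that share libraries and carry no p.

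Start-site windows of 300 bases, 250 before and 50 after the start, were searched because Ebf1 was the most abundant rule gene. RefSeq windows (GRCm38.p6) were found for 14 of the 22 genes that make up the rule and the 20 highest. The EBF half-site pair CCCNNGGG, which reads the same on both strands, was in 2 of their 16 windows (12.5%) and in 13.7% of all 32851 windows. It was present for Bmp4 and Flt1. The 250 bases before the start of Bmp4, at chr14:46390670-46390919 on the minus strand, are shown with the match in capitals.
Bmp4: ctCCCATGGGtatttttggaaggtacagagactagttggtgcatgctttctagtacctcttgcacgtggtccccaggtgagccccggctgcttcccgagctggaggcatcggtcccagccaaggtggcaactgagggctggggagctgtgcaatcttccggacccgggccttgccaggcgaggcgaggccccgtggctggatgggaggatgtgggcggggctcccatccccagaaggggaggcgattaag
Bmp4 itself lies on GRCm38 chromosome 14 at 46383520 to 46390669, minus strand, and Sox2 on chromosome 3 at 34650405 to 34652461, plus strand.

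The next question was how KO dermal cells as a whole differed from control, whether or not a cell met the rule. UMIs were summed over all dermal cells of each library (355, 567, 675 and 804 cells) and tested with edgeR. In such sums fewer cells of a type and less RNA per cell cannot be told apart. Of 12392 genes tested, 323 were lower in KO (2.61%) and 441 higher (3.56%) at an adjusted p under 0.05. Of the 23 condensate genes tested, 9 were lower and 2 higher, with a median log2 fold change of -0.54 against -0.01 over all genes.

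Dermal cells of WT and HET held 29 and 40 Sox2 UMIs and those of KO 1 and KO 2 held 0 and 1, where 0 allows up to 0.316 CPM, and its summed CPM was 106-fold higher in control (counting interval 18.3 to 4230; edgeR adjusted p = 0.00481). Sox18 had 97 and 68 UMIs in control and 2 and 2 in KO, or 63.1-fold more CPM (24.2 to 234; edgeR adjusted p = 0.00481). Foxd1 had 43 and 42 UMIs in control and 1 and 0 in KO (130-fold, 22.7 to 5197; edgeR adjusted p = 0.00495). For each of these genes both KO libraries were below both control libraries, and the share of all genes split this way was not counted. Prdm1 was at 10.6 and 7.29 CPM in WT and HET and 1.05 and 0.549 CPM in KO 1 and KO 2 (log2 fold change -3.47, SE 0.41, edgeR adjusted p = 0.00616). Sox2, Sox18 and Foxd1 had at most 2 UMIs in either KO library, so they entered the fit through their control counts. The condensate list was chosen with earlier results of these data known. Sox2, Sox18, Foxd1 and Prdm1 were also among the genes highest in control members. The p-values of these genes are therefore no separate evidence of a fall in KO. The other falls in the list were Hey1 (-2.53), Trps1 (-2.04), Gal (-4.19), Cdkn1a (-1.07) and Rspo3 (-0.69), and the 2 rises were Igfbp4, which encodes an IGF-binding protein (1.13), and Vcan (0.91). Cxcr4 had 23 and 11 UMIs in control and 3 and 2 in KO, and its edgeR adjusted p of 0.0517 missed the limit. Alx4, a homeobox gene, had 24, 26, 15 and 9 UMIs (edgeR adjusted p = 0.0770). Without the WT library Rspo3 (-0.59) no longer passed, without the HET library Gal (-3.65) did not, and Igfbp4 (0.77) did not when every cell was thinned to 5000 UMIs. Cxcr4 passed without HET (-4.16) or KO 1 (-3.81), and Alx4 without KO 1 (-2.20).

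**Figure D4:**
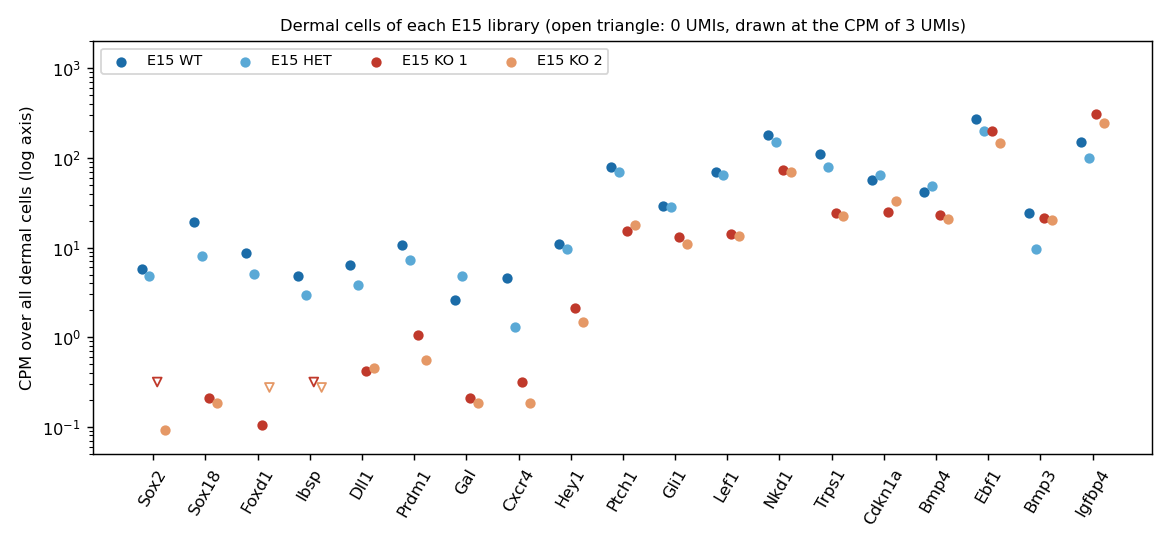
CPM over all dermal cells of each E15 library (y axis, log scale) for 19 named genes; points are single libraries, and open triangles are libraries with 0 UMIs drawn at the CPM of 3 UMIs. Both KO libraries lie below both control libraries for Sox2 to Ebf1, and above both for Igfbp4. The share of all genes split this way was not counted. For Bmp3 the KO libraries (21.4 and 20.3 CPM) lie between WT (24.5 CPM) and HET (9.68 CPM).

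Of the genes high in members outside that list, Ibsp had 24 and 25 UMIs in control dermal cells and 0 and 0 in KO, at least 25.0-fold higher in control at a floor of 3 UMIs over the group. Dll1 had 32 and 32 UMIs in control and 4 and 5 in KO, and Hs3st6 stood at 28.1, 16.7, 6.84 and 7.32 CPM in WT, HET, KO 1 and KO 2. These genes were picked because control members held many of their UMIs, so their lower levels in KO are no separate evidence. Of the rule genes, Ptch1 stood at 78.8, 69.3, 15.3 and 17.7 CPM and Stmn2 at 243, 193, 85.3 and 40.4 CPM. Bmp4 stood at 41.9, 48.0, 23.2 and 21.0 CPM. In the dermal cells that were not members, Bmp4 was at 18.0 and 33.6 CPM in WT and HET and at 22.5 and 20.4 CPM in KO 1 and KO 2, so there the KO libraries lay between the controls. Ebf1 stood at 272, 200, 198 and 145 CPM, where HET and KO 1 nearly met.

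Of 3 hedgehog target genes tested outside the rule, 2 were lower in KO, with a median log2 fold change of -1.26 over the 3. Gli1 was at 29.5 and 28.3 CPM in control and 13.1 and 11.0 CPM in KO (log2 fold change -1.26, SE 0.15, edgeR adjusted p = 0.00618). Hhip (-1.05) missed the limit at an edgeR adjusted p of 0.0620. All 8 hedgehog transducers were tested and 0 passed in either direction.

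Of 11 Wnt response genes 3 were lower and 0 higher, and Lef1 fell from 69.6 and 64.4 CPM to 14.1 and 13.6 CPM (log2 fold change -2.27, SE 0.12, edgeR adjusted p = 0.000747). Nkd1 (-1.22) and Axin2 (-0.69), feedback inhibitors of Wnt signalling, were the others, though Axin2 (-0.52) did not pass when every cell was thinned to 5000 UMIs. Of 10 Wnt inhibitors 4 were lower (Frzb, Wif1, Kremen1 and Dkk1) and 2 higher (Dkk2 and Sfrp1), with a median of 0.63. Of these, Frzb did not pass without HET (-1.72), and Sfrp1 not without HET (0.67) or KO 2 (0.71). Dkk2 (1.36) and Sfrp1 (0.78) did not pass when every cell was thinned to 5000 UMIs. Of 9 FGF response genes 8 were lower, with a median of -1.06, including Etv4 (-3.63), Etv1 (-1.95), Dusp6 (-1.81), Etv5 (-1.67) and Spry1 (-0.92). Spry4 (-1.06), Spred1 (-0.62) and Spred2 (-0.74) also passed, but Spry4 did not without WT (-1.12), HET (-0.98) or KO 1 (-0.95), Spred2 not without WT (-0.75), HET (-0.72) or KO 2 (-0.56), and Spred1 not without HET (-0.62) or KO 2 (-0.54). Spry4 and Spred2 also did not pass after thinning or with DESeq2 in place of edgeR. Of the BMP targets Id1 (-1.57), Id3 (-1.10) and Id2 (-0.99) were lower, 3 of 4 tested.

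In the Notch list 3 of 10 genes were lower (Hey1, Dll1 and Notch1), though Notch1 (-1.45) did not pass when every cell was thinned to 5000 UMIs. Notch1 (-1.02) did not pass without WT (-0.78) or KO 2 (-0.79). In the cell cycle exit list Cdkn1a and Btg1 (-0.59) were lower and Cdkn1c, the gene of the inhibitor p57 (1.02), higher. Btg1 did not pass without WT (-0.47) or KO 2 (-0.54), and Cdkn1c did not without HET (0.82). Of 24 S-phase genes 0 and of 24 G2 and M genes 2, Ube2c and Aurkb, were lower. Ube2c did not pass without HET (-0.62), and Aurkb (-0.49) not without any 1 of the 4 libraries (-0.55 to -0.41). Twist2 itself, which chose most of the dermal cells, was at 947, 1015, 719 and 637 CPM (-0.54) and lost its call without WT (-0.57), HET (-0.50) or KO 2 (-0.44).

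RNA of other cell types moved with genotype too. The 6 red cell markers all rose in KO, with summed levels of 4669, 10532, 27565 and 43055 CPM in the other Twist2 cells of WT, HET, KO 1 and KO 2. Of 10 keratinocyte genes 5 fell and 1, Krt8, rose, with summed levels of 1226, 606, 114 and 259 CPM. None of 8 epithelial and none of 6 endothelial markers tested passed, and the endothelial sums were 32.2, 45.4, 47.6 and 43.4 CPM. Of 7 macrophage markers 3 rose (C1qb, C1qa and Csf1r) and of 5 muscle markers 2 (Actc1 and Acta1). Without HET, Krt8 (1.70), C1qb (0.67) and Acta1 (2.32) did not pass, nor did Csf1r without WT (1.22) or C1qb without KO 1 (0.65). Of 22 fibrillar matrix genes 7 rose and 0 fell (Fn1, Postn, Eln, Fbln2, Dcn, Mfap4 and Vcan), with a median of 0.46. Dcn did not pass without WT (0.85) or HET (0.96), nor Fbln2 without HET (0.46) or KO 2 (0.48). Of 11 lower dermis and fat genes 3 rose (Cd34, Osr1 and Nov), with a median of 1.41, and of 12 upper dermis genes 5 fell (Twist2, Lef1, Prdm1, Axin2 and Dkk1) and 1, Dpp4, rose. With DESeq2 in place of edgeR, Hbb-bs (2.21), Postn (1.57) and Nov (2.45) did not pass. After thinning to 5000 UMIs, Dpp4 (2.77), Csf1r (1.28), C1qb (0.81), Acta1 (3.03), Fbln2 (0.52) and Twist2 (-0.47) did not pass. The part of such RNA, and of the mix of fibroblasts, in the falls above was not tested.

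With the members left out of the sums, 238 of 12348 genes were lower in KO and 316 higher. Leaving out members did not take out the 7 WT and 6 HET gate cells with 2 or more core genes that were not members. The hedgehog list outside the rule had 2 falls of 3, the Wnt response list 3 of 11 and the FGF response list 7 of 9. Lef1 was then at -2.10 and Trps1 at -1.88. The condensate list had 7 falls and 3 rises among 21 genes tested, with Sox18 at -4.97 and Foxd1 at -5.94, while Sox2 no longer reached the minimum count. Rspo3 (-0.46), Dll1 (-1.85), Hs3st6 (-0.87), Notch1 (-0.70), Btg1 (-0.50) and Spred2 (-0.76) no longer passed, and Ntng1 (-1.21 with members) turned to 0.13. Nor did Sfrp1 (0.95), Aurkb (-0.51), C1qb (0.82) and Acta1 (2.84) pass. The rule gene Bmp4, given as a description, moved from -1.03 to -0.32 and also no longer passed.

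Cells with a Bmp3 UMI numbered 35 of 388 gate cells in WT (9.02%), 29 of 596 in HET (4.87%), 84 of 706 in KO 1 (11.9%) and 105 of 892 in KO 2 (11.8%). Of these cells 13, 12, 0 and 1 were members. Gate cells with an Ebf1 UMI numbered 191, 281, 398 and 476 and those with a Bmp4 UMI 78, 151, 144 and 184 in WT, HET, KO 1 and KO 2. Those with a Ptch1 UMI numbered 160, 264, 119 and 159 and those with a Sox2 UMI 14, 20, 0 and 1. In control, 45.7% and 62.1% of the Bmp3 cells also had a UMI of Ptch1, 42.9% and 58.6% of Bmp4, and 31.4% and 37.9% of Sox2. In KO 1 and KO 2 the shares were 5.95% and 15.2% for Ptch1, 21.4% and 19.0% for Bmp4 and 0% and 0% for Sox2. Ebf1 was detected in 85.7%, 79.3%, 90.5% and 87.6% of the Bmp3 cells of WT, HET, KO 1 and KO 2. The KO libraries thus had Bmp3 cells with Ebf1, and few of them had Ptch1 or a core gene. Ptch1 and Sox2 were also rarer over the whole KO gates. Whether their shares fell further in Bmp3 cells than in the gates was not tested.

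**Figure D5:**
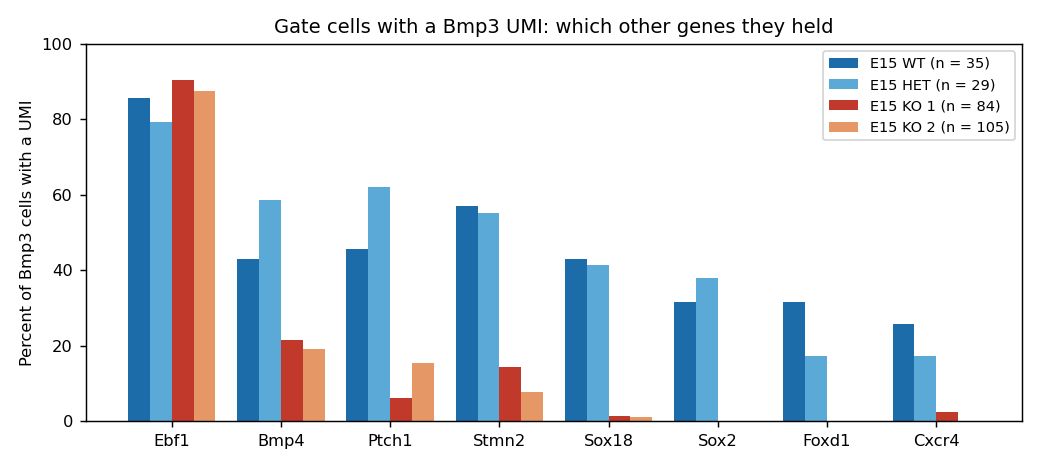
Percent of gate cells with a Bmp3 UMI (n in the key) that also had a UMI of each gene on the x axis; bars are single libraries without error bars. Ebf1 is at 79.3% to 90.5% in all 4 libraries, whereas Bmp4, Ptch1, Stmn2, Sox18, Sox2, Foxd1 and Cxcr4 are lower in both KO libraries than in both control libraries.

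At E13 the gate held little of the core genes in any library. Sox2 had 0, 4, 1 and 0 UMIs and Sox18 1, 0, 1 and 3 in the gate cells of WT, HET, KO 1 and KO 2, and Ibsp had 0 in each. Bmp4 was at 25.1, 33.5, 31.8 and 16.5 CPM there. Ptch1 was at 3.24, 3.18, 2.11 and 3.30 CPM, below all 4 E15 libraries (76.2, 67.3, 14.9 and 17.3 CPM over gate cells). Ages were not tested against each other.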

How the data were processed

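The deposited values were counts: whole-number UMIs per gene (27998 genes) and barcode. The submitters' processing notes name mm10 as the build and Cell Ranger and Seurat as tools. Versions and any filter on barcodes are not given in the sources used here. The members and gene lists were chosen with earlier results of these data known.

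Members were compared with other Twist2 cells by summed CPM in each control library (exact conditional binomial intervals), at 20 or more UMIs per library and 2-fold or more in both. KO was compared with control on UMIs summed over dermal cells, 2 against 2 libraries, with filterByExpr, TMM scaling and edgeR 4.0.16 quasi-likelihood tests in R 4.3.3, adjusted by Benjamini-Hochberg over all genes tested at 0.05. The SE is the log2 fold change divided by the square root of F. The fit was tested on simulated data. Doublets were scored with Scrublet in scanpy 1.11.5 and kept in the main analysis. Alternatives were DESeq2 1.42.0, no filter, other scaling, thinning to 5000 UMIs, members left out, stricter and looser rules, and leaving out each library. Named genes were the rule genes, the 20 highest and 10 lowest in members, and genes of the lists. Promoters came from RefSeq (GRCm38.p6) and gene coordinates from GENCODE M21. A few genes of these lists are not reported here.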

Additional observations from a re-analysis of the deposited data

Results flagged for a closer look

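For 6 of the genes reported here that reached 20 UMIs in each control library, the ratio of members to other Twist2 cells pointed one way in both control libraries and the other way in both KO libraries. Genes with few UMIs in KO members are among them, and the KO ratios rest on 3 and 7 cells. The share of all genes that split this way was not counted, and none of the differences was tested.

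Twist2 had log2 ratios of -1.01 and -0.15 in WT and HET and 0.42 and 0.48 in KO 1 and KO 2, a difference of the means of -1.03, though the other cells were required to hold Twist2. Igfbp4 had log2 ratios of 2.97 and 2.62 in WT and HET and -2.10 and -0.05 in KO 1 and KO 2, a difference of 3.87. KO 1 members held only 4 Igfbp4 UMIs. Those of KO 2 held 22, at 235 CPM against 244 CPM in other cells, which is nearly equal. Gas1, the gene of a hedgehog co-receptor, stood at -1.41 and -0.88 in control and 0.65 and 0.94 in KO, a difference of -1.94, with 41 and 67 UMIs in the KO members.

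The other 3 genes had at most 4 UMIs in the members of either KO library. Wnt4, a Wnt ligand gene, stood at -1.04 and -0.34 in control and 0.79 and 1.47 in KO, a difference of -1.82. It had 3 UMIs in WT members (0.485-fold, counting interval 0.0986 to 1.46) and 2 in those of KO 1 (1.72-fold, 0.207 to 6.31). Cd44, the gene of a hyaluronan receptor, stood at 1.40 and 1.94 in control and -2.62 and -1.32 in KO, a difference of 3.64, with 1 UMI in KO 1 members (0.162-fold, 0.0041 to 0.906). Sema6a, a semaphorin gene, stood at 2.45 and 1.99 in control and -0.69 and -1.40 in KO, a difference of 3.27. It had 1 UMI in the members of each KO library (0.618-fold, 0.0156 to 3.47, and 0.379-fold, 0.00957 to 2.13).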

How the results depend on the processing

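The KO libraries stayed below both control libraries in the share of members under every variant of the rule tried. Every variant used genes known to lead a cluster that held no KO cell, so these shares remain a description. With every cell thinned to 5000 UMIs the shares were 3.21%, 2.08%, 0% and 0% in WT, HET, KO 1 and KO 2. With 2 or more UMIs of each gene they were 3.38%, 1.59%, 0.148% and 0.124% in WT, HET, KO 1 and KO 2. Without the Bmp3 or Stmn2 criterion they were 8.45%, 7.41%, 2.52% and 1.99%. Genes at least 2-fold higher in members numbered 305 of 7191 after thinning (11 of 15 condensate genes). They were 847 of 10018 with members of 2 or more UMIs each (468 lower) and 818 of 27998 with no minimum of UMIs. With only 1 control library they were 1199 of 10860 (without WT) and 1263 of 10124 (without HET). Lower genes then numbered 809 and 1042, and 18 of 21 condensate genes were higher each time. KO against control gave 783 genes lower and 1085 higher of 18204 without a filter on low counts. After thinning it gave 154 lower and 209 higher of 10652. Leaving out 1 library gave 201 (without WT) to 438 lower and 200 (without HET) to 636 higher, where a lone library was assumed to vary like the other arm. The log2 fold change turned for Ebf1 (0.15) and Ntng1 (0.13) with members left out, and for Bmp3 after thinning (-0.20) and without HET (-0.24), against 1.11 without WT. Ebf1 and Bmp3 are rule genes, so these fitted values are a description. The cause of these changes was not tested. No paired analysis was possible because the WT and HET libraries carry no replicate numbers. The KO ratios rest on 3 and 7 members.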
